A study of Mus musculus with 6 samples.

Results

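The 10 genes examined here belong to the germ line and are Dazl, Ddx4, Dppa3, Sycp1, Sycp2, Sycp3, Mael, Stk31, Tdrd1 and Tex101. They were chosen by name as germline genes whose transcripts are often found in embryonic stem cells (ESCs), and all 10 were present among the 24054 genes of the deposited tables. RNA-seq was available for 6 samples of a double knock-in mouse ESC line, heterozygous for Foxa2-Venus and homozygous for Sox17-Cherry, which are fluorescent fusions of both transcription factors that allow sorting by FACS. The d0 cells were undifferentiated and sorted as negative for both reporters, the d3F cells were sorted as Venus-positive and Cherry-negative after 3 days, and the d5FS cells were sorted as positive for both after 5 days, with 2 replicates of each. Differentiation was started on gelatine with 1 ng/ml Wnt3a and 10 ng/ml Activin A. Serum and LIF were in the ESC medium, and the cells had been thawed on irradiated feeder cells before passage on gelatine. All samples carry both knock-in alleles and come from a single line, so that the values describe this line alone. The study describes the replicates as independent, and its sample list names mRNA for one library and total RNA for the other library of each population without a replicate number, while the labels give ribosome-depleted total RNA for all 6.

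In the adult animal these genes act in spermatocytes, spermatids, oocytes and their precursors. In somatic cells many of them are kept silent by methylation of CpG-rich promoters, and in ESCs also by the variant Polycomb complex PRC1.6, whose subunits Mga and Max bind E-boxes and E2f6 binds E2F sites. In ESCs grown in serum silencing is incomplete, and low transcript levels are often seen. DNA methylation was not measured in these libraries, and only transcript levels are given here. The study also profiled DNA methylation and hydroxymethylation by meDIP-seq in separate samples, which were not used here.

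The sequence before each gene start was read first, because the 10 genes are named for the regulation of their promoters. RefSeq windows on GRCm38.p6 (mm10) were found for 9 of the 10 genes, and Dppa3 had none. In the 250 bases before the start, the 9 windows held 7 to 31 CpGs with a median of 17, beside a median of 6 over all 32851 windows of the table. Ddx4 had the highest number (31 CpGs), followed by Stk31 (26), Dazl (20), Mael (18), Sycp1 (17), Tex101 (14), Sycp3 (12), Tdrd1 (11) and Sycp2 (7). The Tex101 window belongs to a RefSeq start 4625 bases from the GENCODE start, and the Ddx4 window to one 165 bases from it. Both RefSeq starts lie downstream of the GENCODE start. The Tex101 window is therefore wholly inside the GENCODE gene, as is the part of the Ddx4 window that holds its E-box. The other 7 starts lay within 27 bases of each other.

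A palindromic E-box (CACGTG) was found in 6 of the 9 windows (66.7%), those of Ddx4, Sycp1, Sycp3, Mael, Stk31 and Tdrd1. The same letters occurred in 6.02% of all windows and in 9.94% of the 7728 windows with at least 17 CpGs. The E2F core (TCCCGC, or GCGGGA on the other strand) was found in 3 of the 9 windows (33.3%), those of Ddx4, Sycp3 and Mael, beside 16.9% of all windows and 44.7% of the CpG-rich ones. No E-box overlapped an E2F core. Among genes of other germline lists with a window, the E-box occurred before 4 of 15 meiotic chromosome genes, 5 of 14 piRNA and nuage genes, 3 of 13 other methylation-dependent germline genes and 0 of 6 primordial germ cell genes. For these lists a match in any RefSeq window of a gene was counted, but for the 9 genes only the window nearest the GENCODE start was searched. A match describes the sequence and does not show binding. The windows of 6 genes follow, 5 with an E-box and that of Dazl as a CpG-rich window without one, 5′ to 3′ on the strand of the gene, with E-boxes and E2F cores in capitals. They cover chr17:50293621-50293870 (minus strand) for Dazl, chr3:102936101-102936350 (minus) for Sycp1, chr10:88459337-88459586 (plus) for Sycp3, chr1:166238745-166238994 (minus) for Mael, chr19:56825959-56826208 (plus) for Tdrd1 and chr6:49395354-49395603 (plus) for Stk31.
Dazl: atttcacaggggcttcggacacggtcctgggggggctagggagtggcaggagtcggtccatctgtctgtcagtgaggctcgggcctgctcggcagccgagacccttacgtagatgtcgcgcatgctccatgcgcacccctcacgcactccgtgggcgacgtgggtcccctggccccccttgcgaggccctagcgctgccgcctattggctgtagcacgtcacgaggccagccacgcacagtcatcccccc
Sycp1: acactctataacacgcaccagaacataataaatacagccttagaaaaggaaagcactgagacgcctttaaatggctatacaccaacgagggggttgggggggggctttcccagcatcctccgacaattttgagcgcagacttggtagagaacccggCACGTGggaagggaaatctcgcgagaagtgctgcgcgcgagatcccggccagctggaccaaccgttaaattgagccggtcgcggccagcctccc
Sycp3: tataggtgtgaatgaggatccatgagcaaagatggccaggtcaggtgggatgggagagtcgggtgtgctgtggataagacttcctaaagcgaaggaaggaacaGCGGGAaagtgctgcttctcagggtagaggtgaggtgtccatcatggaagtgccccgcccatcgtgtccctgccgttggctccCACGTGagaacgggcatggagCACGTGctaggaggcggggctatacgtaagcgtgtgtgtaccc
Mael: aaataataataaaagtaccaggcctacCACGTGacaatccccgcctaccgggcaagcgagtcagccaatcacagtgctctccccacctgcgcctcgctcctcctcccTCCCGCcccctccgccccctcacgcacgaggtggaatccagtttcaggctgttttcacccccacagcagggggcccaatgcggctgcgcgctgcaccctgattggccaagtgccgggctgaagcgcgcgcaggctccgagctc
Tdrd1: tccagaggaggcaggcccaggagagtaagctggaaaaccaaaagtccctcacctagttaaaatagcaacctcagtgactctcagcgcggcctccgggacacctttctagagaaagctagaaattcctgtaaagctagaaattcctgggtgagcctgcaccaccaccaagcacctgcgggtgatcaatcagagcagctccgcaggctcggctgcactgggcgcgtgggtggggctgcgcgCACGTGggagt
Stk31: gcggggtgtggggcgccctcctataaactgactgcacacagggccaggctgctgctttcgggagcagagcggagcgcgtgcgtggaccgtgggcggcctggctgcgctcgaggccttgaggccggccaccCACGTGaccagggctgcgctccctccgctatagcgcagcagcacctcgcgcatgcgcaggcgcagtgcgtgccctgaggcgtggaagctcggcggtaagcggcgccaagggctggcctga
For Ddx4, only the 30 bases around its E-box are shown.
Ddx4: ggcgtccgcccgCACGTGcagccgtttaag
The first base of the E-box lay 11 bases before the start in Tdrd1, 29 in Ddx4, 94 in Sycp1, 120 in Stk31 and 223 in Mael, and Sycp3 had copies at 64 and 43 bases.

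**Figure D1:**
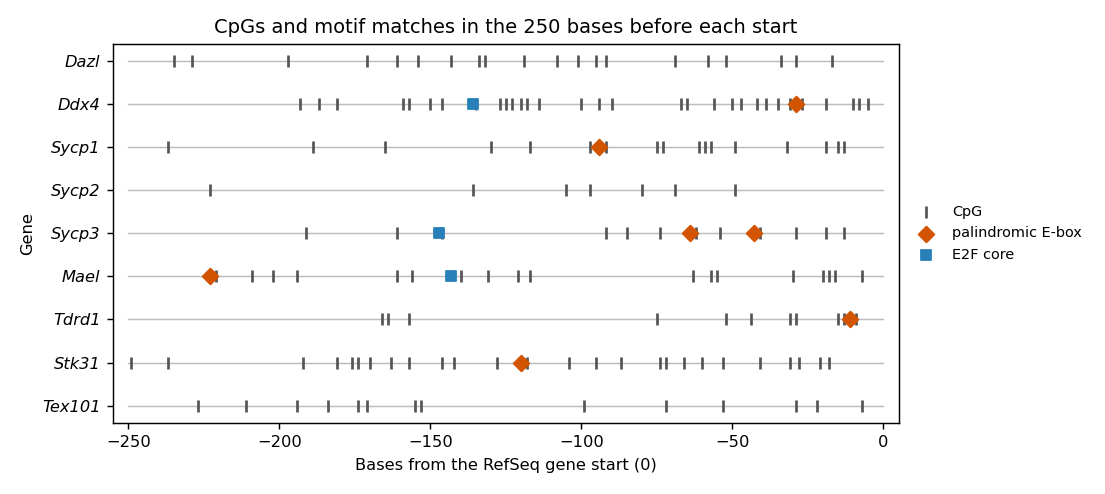
CpGs (ticks), palindromic E-boxes (diamonds) and E2F cores (squares) in the 250 bases before the RefSeq start of 9 genes, with the distance from the start in bases on the x axis. Ddx4 holds 31 CpGs and Sycp2 7, and E-boxes are seen in 6 of the 9 windows.

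Libraries held 16457729 to 22768686 expected counts. Levels are given as CPM, the expected count of a gene scaled to the total of its library. Differences between populations are log2 fold changes with their standard errors (SE) and adjusted p, from the quasi-likelihood test of edgeR over 14539 genes. A gene was called if its adjusted p was under 0.05 and its level changed by more than 1 on the log2 scale. Pou5f1 and Foxa2 followed the labels between d0 and d5FS, although for Foxa2 this follows from the sorting on its own reporter. Pou5f1, a pluripotency factor, was at 891.1 and 1198 CPM in d0 and at 56.7 and 43.4 CPM in d5FS, and Foxa2 was at 0.0452 and 0.270 CPM in d0 and between 39.2 and 77.0 CPM in the 4 d3F and d5FS libraries. In d3F, Pou5f1 was still at 751.2 and 351.6 CPM. Nanog, another pluripotency factor, was at 76.3 and 266.9 CPM in d0 and at 108.1 and 54.0 CPM in d3F. Neither was called in d3F against d0. One d0 library stood apart: 14 genes of two-cell-like cells, a rare state of ESC cultures, summed to 121.5 CPM in d0 replicate 2, to 7.92 CPM in d0 replicate 1 and to 4.28 to 7.46 CPM in the other 4 libraries. Other marker sums also differed between the d0 libraries. The 6 pluripotency factors summed to 1305 CPM in replicate 1 and 2409 CPM in replicate 2. The 5 mesendoderm markers summed to 32.7 and 10.3 CPM. Results are therefore also given without d0 replicate 2.

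All 10 genes were higher in both d0 libraries than in both d3F libraries, and 9 of them also than in both d5FS libraries, with Sycp2 as the exception. 6 genes were called lower in d3F than in d0 and 7 were called lower in d5FS than in d0, of 9 tested. Between d3F and d5FS none was called. As background, 1.9% of the genes tested were called lower and 2.8% higher in d3F against d0, 10.4% lower and 12.4% higher in d5FS against d0, and both libraries were below both d0 libraries for 19.5% (d3F) and 27.3% (d5FS) of the genes tested. The median log2 fold change of the 9 genes tested was -3.87 in d3F against d0 and -3.97 in d5FS against d0, beside -0.0059 and 0.017 over all genes tested. Tex101 passed the filter on low counts through its 2 d0 libraries alone, so that a lower level elsewhere was favoured by the filter for this gene, and Sycp2 did not pass. The same limit holds for genes of the other lists that are named as having passed through d0 alone. In bulk RNA-seq, fewer cells with a transcript and less transcript in each cell cannot be told apart.

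These counts depended on single libraries. For d3F against d0, 3 genes were called without d3F replicate 1, 1 without d3F replicate 2 and 4 without d0 replicate 2. For d5FS against d0, 4 were called without d5FS replicate 1, 4 without d5FS replicate 2 and 6 without d0 replicate 2. Over all genes tested, too, fewer were called in each of these fits than with all libraries, so the loss was not particular to these genes. All fold changes of the 9 genes against d0 stayed negative in each of these fits.

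**Figure D2:**
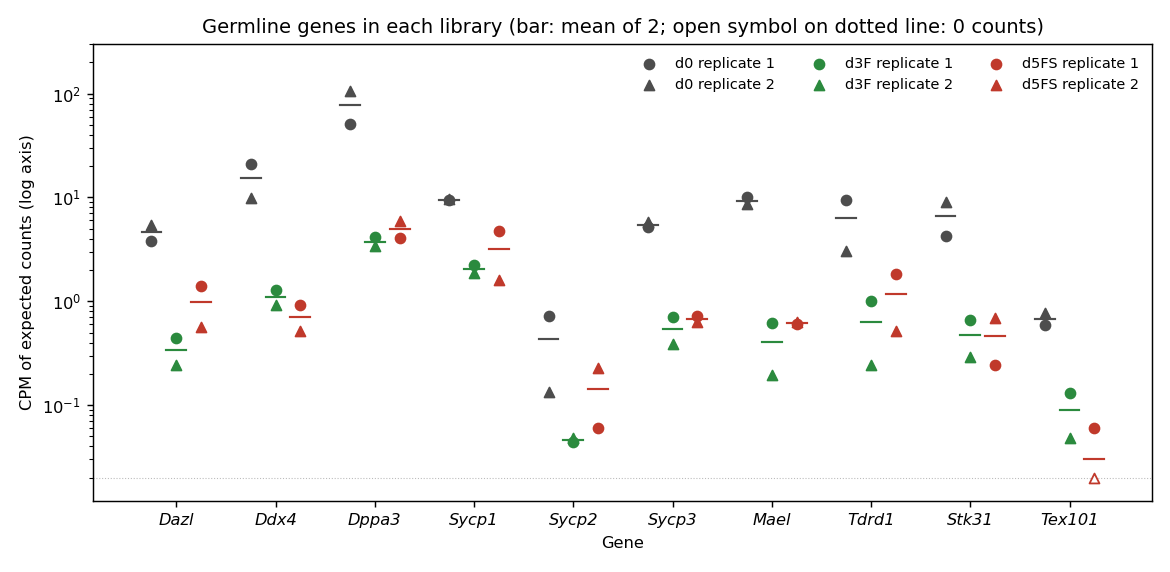
CPM of the 10 genes on a log axis in each of the 6 libraries (circles replicate 1, triangles replicate 2, short bars the mean of 2; d0 grey, d3F green, d5FS red). The d0 symbols lie above all others for every gene except Sycp2, and Tex101 had 0 counts in d5FS replicate 2 (open symbol).

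Dazl and Ddx4 are RNA-binding proteins of the early germ cell. Dazl (chr17:50279395-50293636, minus strand), which binds 3′ untranslated regions and controls translation, was at 3.85 and 5.44 CPM in d0, 0.439 and 0.242 CPM in d3F, and 1.40 and 0.570 CPM in d5FS. Both d5FS libraries lay above both d3F libraries and below both d0 libraries. In d3F it had fallen to 6.82% of the d0 level (log2 fold change -3.87, SE 0.68, adjusted p = 0.0209), and in d5FS it was at 19% (-2.39, SE 0.62, adjusted p = 0.0283). The difference between d5FS and d3F was 1.48 (SE 0.68, adjusted p = 0.296) and was not called. The d3F call was lost without d0 replicate 2 (adjusted p = 0.0623) or without either d3F library (0.0792 and 0.173), and the d5FS call without d0 replicate 2 (0.103) or without either d5FS library (0.0734 and 0.135).

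Ddx4 (chr13:112598333-112652475, minus strand), the Vasa helicase of germ cell granules, was at 20.9 and 9.88 CPM in d0, 1.27 and 0.919 CPM in d3F, and 0.911 and 0.513 CPM in d5FS. The 3 populations did not overlap, in the order d0, d3F, d5FS, while the d0 libraries differed from each other by 2.11-fold. The fall reached a log2 fold change of -3.87 in d3F (SE 0.52, adjusted p = 0.0103) and -4.51 in d5FS (SE 0.55, adjusted p = 0.00263). The d3F call was lost without d3F replicate 2 (adjusted p = 0.0773). The step from d3F to d5FS, -0.64 (SE 0.53, adjusted p = 0.57), was not called. The length that RSEM assigned to Ddx4 from its 2 transcripts was 2849 bases in all d0 and d3F libraries and 2771 bases in both d5FS libraries, which held 15 and 9 counts.

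Dppa3 (chr6:122626410-122630272, plus strand), also called Stella, is a maternal factor that protects the methylation of the zygote and marks primordial germ cells. It was by far the most abundant of the 10 genes, at 51.3 and 105.4 CPM in d0, 4.13 and 3.39 CPM in d3F, and 4.07 and 5.92 CPM in d5FS. The d3F and d5FS values overlapped, and d0 replicate 2 was 2.05-fold above replicate 1. Dppa3 fell to 4.34% of d0 in d3F (log2 fold change -4.53, SE 0.52, adjusted p = 0.00786) and was at 5.75% in d5FS (-4.12, SE 0.51, adjusted p = 0.0027). These calls were kept in every fit that left out a single library, with log2 fold changes of -5.03 to -3.74 in d3F and -4.63 to -3.34 in d5FS. On the TPM scale, which allows levels of genes to be compared within a library, Dppa3 was at 53.5 and 59.5 TPM in d0, and the highest of the other 9 genes was at 4.99 and 2.24 TPM. In d3F and d5FS it was still the highest of the 10, at 2.29 to 4.18 TPM.

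The 3 synaptonemal complex genes encode the scaffold that joins paired chromosomes in meiosis. Sycp1 (chr3:102818499-102936100, minus strand), the transverse filament, was at 9.41 and 9.57 CPM in d0, 2.24 and 1.89 CPM in d3F, and 4.80 and 1.595 CPM in d5FS. The populations d0 and d5FS did not overlap, but the d5FS libraries differed by 3.01-fold and enclosed both d3F values. Sycp1 kept the largest share of its d0 level among the 9 genes tested, 20.2% in d3F (log2 fold change -2.31, SE 0.55, adjusted p = 0.0536) and 30.4% in d5FS (-1.72, SE 0.54, adjusted p = 0.0513), and neither difference was called. With the replicate number as a block both were called (adjusted p = 0.0361 and 0.0299), as they were in the fit without d5FS replicate 1 (0.0477 and 0.0478), and the d3F difference also without d5FS replicate 2 (0.0462).

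Sycp3 (chr10:88459569-88473236, plus strand), a component of the lateral element, was at 5.16 and 5.75 CPM in d0, 0.703 and 0.387 CPM in d3F, and 0.729 and 0.627 CPM in d5FS. Replicates lay close together in d0, and d3F and d5FS overlapped. The log2 fold change was -3.43 in d3F (SE 0.56, adjusted p = 0.0162) and -3.13 in d5FS (SE 0.55, adjusted p = 0.00782). These calls were lost without either d3F library for d3F (adjusted p = 0.0616 and 0.151) and without either d5FS library for d5FS (0.0576 and 0.0512). Sycp2 (chr2:178345293-178407685, minus strand), the other lateral element protein, had 16 and 3 counts in the d0 libraries, 1 and 1 in those of d3F and 1 and 4 in those of d5FS. These were too few for the test. Over both libraries the ratio of d0 to d3F was 9.3, with a 95% exact interval of 2.24 to 82.4 that covers counting error only, and the ratio of d0 to d5FS was 2.91 (1.05 to 9.98). Sycp2 was thus near the limit of detection at this depth even in d0, where Sycp1 and Sycp3 were above 5 CPM.

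Mael, Tdrd1 and Stk31 belong to the piRNA pathway and to nuage, the granules in which small RNAs against transposons are made. Mael (chr1:166201201-166238747, minus strand), needed for transposon silencing, was at 10.0 and 8.58 CPM in d0, 0.615 and 0.194 CPM in d3F, and 0.608 and 0.627 CPM in d5FS. It showed the lowest share of d0 in d3F of the genes tested (4.1%, log2 fold change -4.61, SE 0.60, adjusted p = 0.0103) and was at 6.21% in d5FS (-4.01, SE 0.59, adjusted p = 0.00433). Its d5FS replicates differed by only 1.03-fold, and those of d3F by 3.18-fold with 14 and 4 counts. Without d3F replicate 2 the d3F call was lost (adjusted p = 0.0579).

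Tdrd1 (chr19:56826209-56870012, plus strand), a Tudor protein that binds Piwi proteins, was at 9.55 and 3.06 CPM in d0, 1.01 and 0.242 CPM in d3F, and 1.82 and 0.513 CPM in d5FS. Replicate 1 was above replicate 2 in all 3 populations, by 3.12-fold to 4.18-fold, and within either replicate number the order was d0, d5FS, d3F. The log2 fold changes of -3.39 in d3F (SE 0.86, adjusted p = 0.0631) and -2.52 in d5FS (SE 0.83, adjusted p = 0.0594) were not called. With the replicate number as a block they were called (adjusted p = 0.0125 and 0.00726), and the d5FS difference was also called without d0 replicate 2 (adjusted p = 0.044). Stk31 (chr6:49395604-49469501, plus strand), a Tudor domain protein with a kinase-like domain, was at 4.30 and 9.03 CPM in d0, 0.659 and 0.290 CPM in d3F, and 0.243 and 0.684 CPM in d5FS. The d3F and d5FS values were intermingled, and their difference was -0.02 (SE 0.78, adjusted p = 0.993). Stk31 fell by 3.95 on the log2 scale in d3F (SE 0.76, adjusted p = 0.0278) and by 3.97 in d5FS (SE 0.77, adjusted p = 0.0107). The d3F call was lost without d0 replicate 2 (adjusted p = 0.0901) or either d3F library (0.0792 and 0.196), and the d5FS call without d5FS replicate 1 (0.0756).

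Tex101 (chr7:24668007-24676675, minus strand), a surface protein of germ cells, had 13 and 17 counts in the d0 libraries, 3 and 1 in those of d3F and 1 and 0 in those of d5FS. It was the least abundant of the genes tested, at 0.588 and 0.764 CPM in d0. The ratio of d0 to d5FS over both libraries was 23, with a counting interval of 3.82 to 938, and that of d0 to d3F was 7.35 (2.59 to 28.7). The fall was called in d5FS (adjusted p = 0.026) and not in d3F (adjusted p = 0.105), and the d5FS call was lost by DESeq2 with the same thresholds (adjusted p = 0.0753). Of the 6 fits that left out one library only that without d0 replicate 1 kept it, with adjusted p between 0.0476 and 0.14 over the 6.

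**Figure D3:**
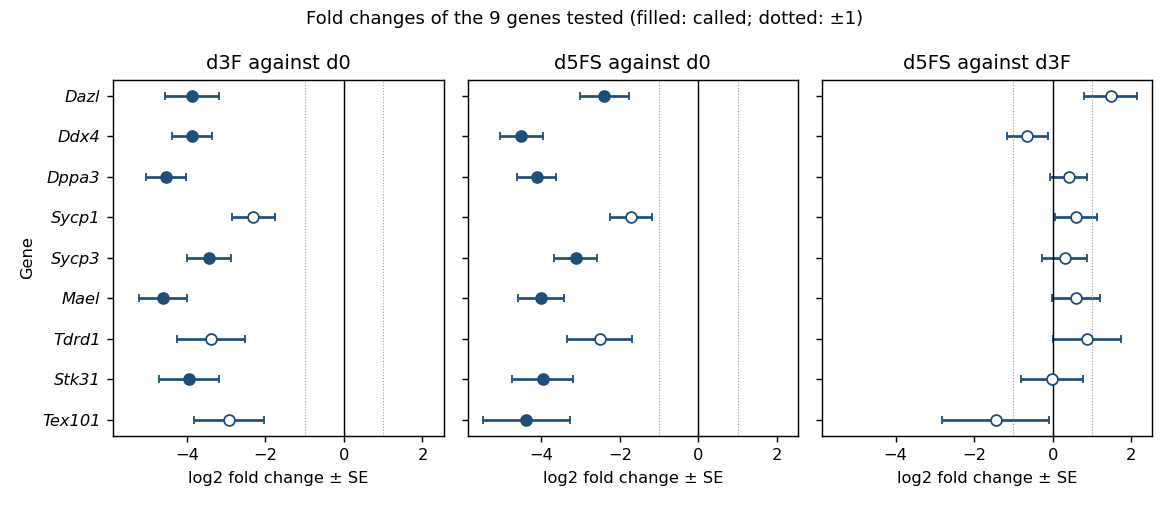
Log2 fold changes with SE of the 9 genes tested in 3 comparisons, filled where called and open where not. All 9 lie left of 0 against d0, with 6 called in d3F and 7 in d5FS, and none is called in d5FS against d3F.

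From d3F to d5FS the levels of these genes showed no call in either direction, where 0.461% of all genes tested were called lower and 1.08% higher. None of the 9 had an unadjusted p under 0.05 in edgeR, and DESeq2 called 0 as well. The median log2 fold change was 0.41, beside 0.011 over all genes tested. Values ranged from -1.46 (SE 1.37) for Tex101 to 1.48 (SE 0.68) for Dazl. By the mean CPM, 7 of the 10 genes were higher in d5FS than in d3F, but by the deposited TPM only 4 were (Dazl, Sycp1, Sycp2 and Tdrd1). The libraries of both populations overlapped for all genes except Dazl and Sycp2, higher in d5FS, and Ddx4, lower in d5FS. For Sycp2 this rests on 1 and 1 counts in d3F beside 1 and 4 in d5FS. The share of all genes without overlap was not computed for this comparison, so these cases are a description only.

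Summed over the 10 genes, 115.7 and 157.6 CPM were found in d0, 11.2 and 7.64 CPM in d3F, and 14.7 and 11.3 CPM in d5FS. Without Dppa3 the sums were 64.4 and 52.2 CPM in d0, 7.12 and 4.26 CPM in d3F, and 10.6 and 5.36 CPM in d5FS. Hence the difference from d0 was also present for the other 9 genes, and with Dppa3 left out d0 replicate 1 was the higher d0 library. The d0 replicates of the 10 genes did not move together: Ddx4, Mael, Sycp2 and Tdrd1 were higher in replicate 1 and the other 6 in replicate 2. Replicate 2 is the library with the higher two-cell-like and pluripotency sums. Whether two-cell-like cells, or the other differences between the d0 libraries, contributed to Dppa3 or Stk31 in that library was not tested. Without it Dppa3 was called in both comparisons, and Stk31 in d5FS but not in d3F (log2 fold change -3.14, adjusted p = 0.0901).

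**Figure D4:**
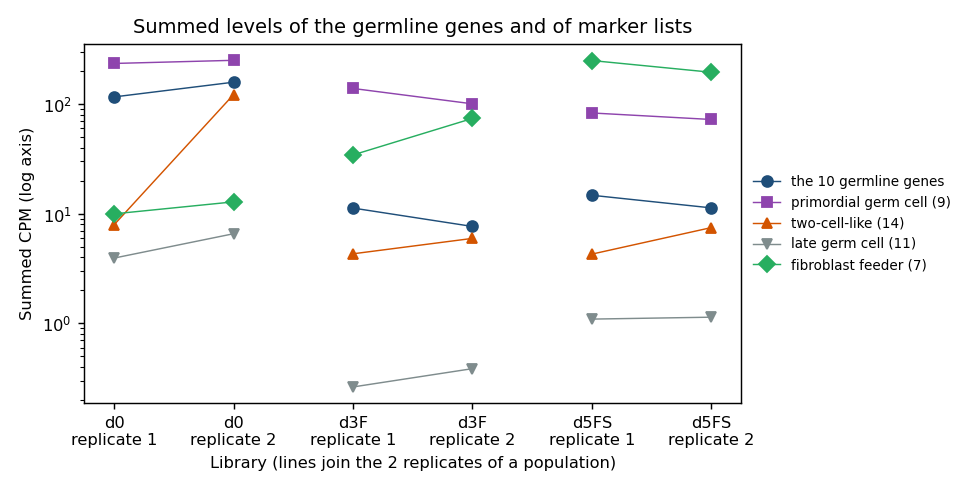
Summed CPM (log axis) of the 10 germline genes and of 4 marker lists in each library, lines joining the 2 replicates of a population. The germline sum is 115.7 and 157.6 CPM in d0 and between 7.64 and 14.7 CPM in the other libraries, whereas the two-cell-like sum is high in d0 replicate 2 only (121.5 CPM).

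Other germline genes were grouped in lists. The background for each list is the share of all genes tested that was called. It was 1.9% lower and 2.8% higher in d3F against d0, and 10.4% lower and 12.4% higher in d5FS against d0. Of 19 meiotic chromosome genes, 12 had enough counts for the test, and 2 were called lower in d3F and 5 in d5FS against d0, with none higher. Without d0 replicate 2, 1 and 1 were called lower, and with the replicate number as a block 2 and 6. The filter was passed through d0 alone by 5 of the 12, among them Syce1 and Tex11, and 3 of these 5 are among the calls in d5FS, so the tally is a description. The median log2 fold changes were -1.32 and -1.51. Syce1, a central element protein of the synaptonemal complex, was at 4.98 and 6.96 CPM in d0, 0.264 and 0.194 CPM in d3F, and 0.304 and 0.114 CPM in d5FS, where its log2 fold change was -4.96 (SE 0.69). Tex11, a meiotic recombination protein, was at 2.53 and 5.93 CPM in d0 and 0.243 and 0.456 CPM in d5FS (-3.73, SE 0.81). Syce2, another central element protein and the most abundant gene of the list, was at 45.7 and 67.7 CPM in d0 and 19.9 and 27.5 CPM in d5FS (-1.39, SE 0.38, adjusted p = 0.0338).

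Among 18 piRNA and nuage genes, 12 were tested. In d3F 4 were called lower and 1 higher, and in d5FS 5 lower and 1 higher, with median log2 fold changes of -2.02 and -1.08. With the replicate number as a block, 2 were called higher in d3F, and without d0 replicate 2 none was. The filter was passed through d0 alone by 2 of the 12, both called lower in d5FS. Rnf17, a Tudor protein of germ cells, was at 38.6 and 51.4 CPM in d0, 7.29 and 4.30 CPM in d3F, and 9.11 and 4.61 CPM in d5FS (in d5FS -2.87, SE 0.44, adjusted p = 0.00495). Tdrd12 was at 31.4 and 89.7 CPM in d0 and at 0.851 and 5.70 CPM in d5FS (-4.34, SE 0.90, adjusted p = 0.013). The gene that rose was Tdrd7, a Tudor protein that is also used outside the germ line, in the lens. It was at 3.71 and 2.02 CPM in d0, 10.9 and 17.6 CPM in d3F, and 37.1 and 35.0 CPM in d5FS, without overlap (in d5FS 3.56, SE 0.44, adjusted p = 0.00268).

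Of 15 other genes with methylation-dependent germline expression, 12 were tested, and 6 were called lower in d3F and 7 in d5FS, with medians of -3.62 and -2.76. Without d0 replicate 2, 5 and 4 were called lower, and with the replicate number as a block 6 and 9. Of the 12, 5 passed the filter through d0 alone, 3 of them called lower in d5FS. Tex19.1, a regulator of transposons, was at 36.4 and 126.2 CPM in d0, 4.04 and 2.42 CPM in d3F, and 2.07 and 3.42 CPM in d5FS (in d5FS -5.06, SE 0.72, adjusted p = 0.00398). Rpl10l, a retrogene of a ribosomal protein used in spermatogenesis, was at 7.74 and 25.6 CPM in d0 and at 0.365 and 0.513 CPM in d5FS (-5.40, SE 0.80, adjusted p = 0.00441). Both were higher in d0 replicate 2 than in d0 replicate 1, the direction of the two-cell-like and pluripotency sums. Rhox5, an X-linked homeobox gene, was at 26.2 and 66.0 CPM in d0 and 23.3 and 36.1 CPM in d5FS, which overlapped (-0.79, SE 0.50, adjusted p = 0.282).

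Of 9 primordial germ cell genes 8 were tested, 1 was called lower in d3F and 6 in d5FS, with medians of -1.51 and -2.83. One of the 8, called lower in d5FS, passed the filter through d0 alone. In this list Dnd1 was also called lower in d5FS against d3F (log2 fold change -3.26, SE 0.57, adjusted p = 0.0373). In d3F against d0 its fold change was positive and not called (1.09, SE 0.52). With the replicate number as a block, 3 were called lower in d3F and 2 in d5FS against d3F, among them Ifitm1 and Tfap2c in the former and Ifitm3 in the latter (adjusted p = 0.0222, 0.0369 and 0.0461). Without d0 replicate 2, 0 were called lower in d3F and 3 lower and 1 higher in d5FS, where 5 and 6 had an unadjusted p under 0.05 with all libraries. Ifitm3, a membrane protein of nascent germ cells, was at 79.7 and 53.3 CPM in d0, 29.1 and 20.8 CPM in d3F, and 9.30 and 11.8 CPM in d5FS (in d5FS -2.75, SE 0.34, adjusted p = 0.00276). Tfap2c, a transcription factor of germ cell specification, was at 34.1 and 48.8 CPM in d0, 16.2 and 15.3 CPM in d3F, and 7.47 and 4.84 CPM in d5FS (in d5FS -2.90, SE 0.39, adjusted p = 0.00336). Ifitm1, the most abundant of the list, was at 93.8 and 73.2 CPM in d0 and 17.4 and 4.39 CPM in d5FS (-3.08, SE 0.65, adjusted p = 0.0139). For Ifitm3 and Tfap2c the d3F libraries lay between d0 and d5FS. The genes tested but not called in d5FS against d0 were Prdm1 (-0.15, SE 0.35) and Kit (0.65, SE 0.62). Nanos2 had at most 2 counts in any library.

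Late germ cell markers were near 0. Only 2 of 11 had enough counts, the protamines Prm1 and Prm2 had at most 2 counts in any library, and Tnp1 had none in all 6. Their sum was 3.94 and 6.56 CPM in d0 and 0.264 to 1.14 CPM elsewhere. The exception was Zp3, a zona pellucida protein of the oocyte, with 60 and 99 counts in d0 but 1 and 0 in both d3F and d5FS. Its ratio of d0 to d5FS was 122, with a counting interval of 21.6 to 4850, and it passed the filter through d0 alone.

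**Figure D5:**
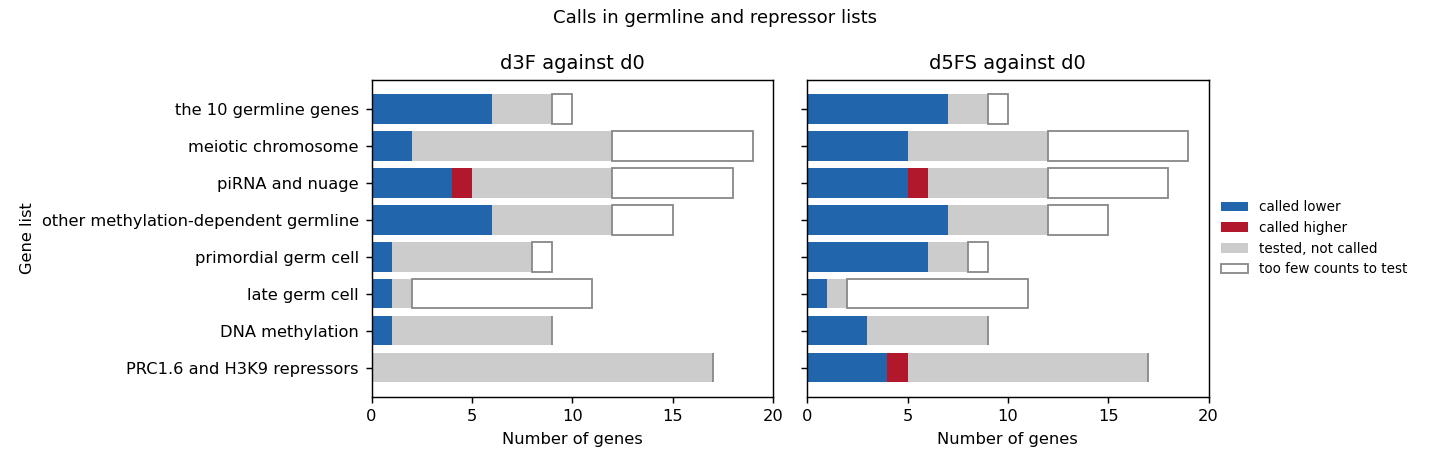
Number of genes called lower (blue), called higher (red), tested and not called (grey) or with too few counts (white) in 8 lists, for d3F and d5FS against d0. Lower calls outnumber higher ones in the germline lists, but some are of genes that passed the filter on low counts through d0 alone. The PRC1.6 and H3K9 list has 0 calls of 17 in d3F, where 1.9% of all genes tested were called lower and 2.8% higher.

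Genes of the silencing machinery were read beside the germline genes. As background, 1.9% of all genes tested were called lower and 2.8% higher in d3F against d0. In d5FS against d0 these shares were 10.4% and 12.4%. Of 17 genes of PRC1.6 and of H3K9 methylation, 0 were called in d3F by edgeR, where 3 had an unadjusted p under 0.05, and DESeq2 called 0 lower and 1 higher. In d5FS 4 were called lower and 1 higher, and without d0 replicate 2 these counts were 1 and 0. The higher one was Yaf2, a PRC1 subunit, at 15.9 and 10.2 CPM in d0 and 43.8 and 32.1 CPM in d5FS (1.43, SE 0.32, adjusted p = 0.0161). With the replicate number as a block Yaf2 was called in d3F too (adjusted p = 0.0272), and a further gene, Ring1, in d5FS (0.0312). Hdac1, a histone deacetylase, was at 193.0 and 116.4 CPM in d0 and 71.0 and 49.2 CPM in d5FS (-1.47, SE 0.33, adjusted p = 0.0176). Cbx3, an HP1 protein and the most abundant of the list, overlapped between d0 (388.8 and 255.2 CPM) and d5FS (269.5 and 180.7 CPM), with a log2 fold change of -0.62 (SE 0.34, adjusted p = 0.211).

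Of 9 DNA methylation genes, 1 was called lower in d3F and 3 in d5FS, and without d0 replicate 2 these counts were 1 and 2. Dnmt3l, the cofactor of the de novo methyltransferases, was at 283.0 and 375.5 CPM in d0, 10.4 and 9.82 CPM in d3F, and 10.2 and 11.4 CPM in d5FS, and the fall was called in both (-5.15, SE 0.37, adjusted p = 0.0022, and -5.06, SE 0.37, adjusted p = 0.000916). The dioxygenase Tet1 was at 232.5 and 122.3 CPM in d0 and 45.9 and 32.3 CPM in d5FS (-2.28, SE 0.46, adjusted p = 0.0118). Dnmt3a, a de novo methyltransferase, was called lower in d5FS (-1.39, SE 0.36, adjusted p = 0.027) and not in d3F (-0.54, SE 0.35, adjusted p = 0.448). The others were not called in d5FS against d0, namely the maintenance methyltransferase Dnmt1 (-0.97, SE 0.34), its partner Uhrf1 (-1.08, SE 0.57), Dnmt3b (-0.89, SE 0.37), Tet2 (-1.29, SE 0.51), Tet3 (1.42, SE 0.50) and the glycosylase Tdg (-0.27, SE 0.28). With the replicate number as a block Tet1 was called lower in d3F (adjusted p = 0.0202), and in d5FS Uhrf1 was called lower (0.0122) and Tet3 higher (0.0309). Dnmt3b, the most abundant, was at 904.6 and 495.5 CPM in d0, 794.4 and 454.4 CPM in d3F, and 366.8 and 432.8 CPM in d5FS.

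Markers of other cell types were read as follows. Feeder fibroblasts had been removed before the passages on gelatine, and the d3F and d5FS gates required Foxa2-Venus. The 7 genes of the fibroblast feeder list summed to 9.95 and 12.8 CPM in d0, 34.3 and 73.7 CPM in d3F, and 248.2 and 194.1 CPM in d5FS, the opposite direction to the germline sum. Of the 6 tested, 1 was called higher in d3F (Col1a2) and 4 in d5FS (Col1a1, Col1a2, Col3a1 and Postn). Thy1 was lower, at 3.17 and 1.30 CPM in d0 and 1.09 and 0.456 CPM in d5FS (log2 fold change -1.62, SE 0.95, not called). The collagen gene Col1a2 was at 0.769 and 2.88 CPM in d0 and 117.4 and 155.3 CPM in d5FS (6.06, SE 0.91, adjusted p = 0.00449), and Col3a1 at 1.99 and 2.07 CPM in d0 and 63.2 and 17.0 CPM in d5FS (4.15, SE 0.62, adjusted p = 0.00441). Lum had at most 1 count in any library and Dcn 2 to 16. Their part in the germline values was not tested. Of the two-cell-like genes 6 of 14 were tested, 0 were called in d3F by edgeR, where 5 had an unadjusted p under 0.05 and DESeq2 called 9 without the filter of edgeR. In d5FS 4 were called lower, and 1 without d0 replicate 2. Of the 6 tested, 3 passed the filter through d0 alone, among them Zscan4e, with 17 and 126 counts in d0 and 0 and 0 in d5FS, and Zscan4d, at 1.22 and 8.45 CPM in d0 and 0.127 and 0.268 CPM in d5FS. Zscan4f, the most abundant, was at 2.05 and 39.6 CPM in d0 and 0.720 and 1.23 CPM in d5FS. Of 5 mesendoderm markers 5 were called higher in d3F and 4 in d5FS, and of 6 endoderm markers 6 and 6, and without d0 replicate 2 these counts were 4 and 3, and 3 and 6. Gsc, a homeobox factor, was at 0.452 and 0.629 CPM in d0 and at 49.1 and 77.2 CPM in d5FS (6.74, SE 0.51, adjusted p = 0.000929). The secreted antagonist Cer1 was at 1.45 and 0.539 CPM in d0 and 316.2 and 478.6 CPM in d5FS (8.56, SE 0.56, adjusted p = 0.000724). Gata6, a zinc finger factor, rose by 6.10 (SE 0.48, adjusted p = 0.00101), and Foxa2, on both lists, by 8.11 (SE 0.69, adjusted p = 0.00127). The rise of Foxa2 in both populations and of Sox17 in d5FS followed from the sorting gates. The mesendoderm marker T was at 20.4 and 4.49 CPM in d0, 182.8 and 66.1 CPM in d3F, and 9.11 and 3.25 CPM in d5FS. Its difference between d5FS and d0 was negative and not called (-1.08, SE 0.71). T and Mixl1 were called lower in d5FS against d3F (-4.34, SE 0.79, and -2.62, SE 0.45). Of the pluripotency factors, 4 of 6 were called lower in d3F and 6 in d5FS, and without d0 replicate 2 these counts were 1 and 5. Zfp42, at 135.8 and 465.2 CPM in d0 and 18.9 and 10.5 CPM in d3F, had a d3F log2 fold change of -4.54 (SE 0.67, adjusted p = 0.0137), whereas Pou5f1 (751.2 and 351.6 CPM in d3F) was not called in d3F (-1.07, SE 0.40, adjusted p = 0.175).

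The profile of the germline genes over the 6 libraries was compared with all other genes tested, as a description without a test. The measure was Pearson's r of log2 CPM with the mean standardised profile of the 9 genes, and the 6 points share libraries and fall into d0 and the rest. Highest were Trim13 (r = 0.995), a ubiquitin ligase, Lat (0.995), an adaptor of T cell receptor signalling, Zp3 (0.995), Urah (0.994), an enzyme of urate breakdown, and Bin2 (0.994), a BAR domain protein. Their levels in d0 were 33.4 and 33.0 CPM for Trim13, 2.53 and 2.07 CPM for Lat, 16.5 and 14.7 CPM for Urah and 3.67 and 4.94 CPM for Bin2. In d5FS the same genes were at 16.5 and 12.02 CPM (Trim13), 0.486 and 0.399 CPM (Lat), 2.55 and 1.82 CPM (Urah) and 0.911 and 0.513 CPM (Bin2). These genes were chosen for a profile that is high in d0, so their lower level in d5FS follows from the choice, and it ranged from -6.80 for Zp3 to -1.35 for Trim13 as a log2 fold change.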

How the data were processed

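RNA-seq of 6 samples (d0, d3F and d5FS, 2 replicates each) was used, with groups and replicate numbers taken from the sample titles. By the labels and the methods of the study ribosomal RNA was depleted, whereas its sample list names mRNA for some of the libraries. Libraries were made with a kit that does not mark strand (sense and antisense transcripts cannot be told apart). Paired reads of 100 bases were processed with STAR and RSEM on mm10, versions not given in the sources used here. The authors deposited RSEM expected counts per gene, which are not normalized, and TPM, scaled by RSEM for effective length. The deposited FPKM values were not used. Expected counts of all 10 genes were whole in all 6 libraries.

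CPM is the deposited expected count scaled to the library total. Rounded counts were filtered (filterByExpr, 14539 genes kept), normalized by TMM and fitted over all 6 samples with edgeR 4.0.16 (glmQLFit, glmQLFTest, 3 residual degrees of freedom) in R 4.3.3, with Benjamini-Hochberg adjustment over all genes tested. SE was obtained from the log2 fold change and its F statistic. An exact permutation test of 2 against 2 samples cannot give a p below 0.33 and was not run. The pipeline was tested on simulated data. Intervals of count ratios are exact (Clopper-Pearson, 95%).

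The alternatives were the size factors of DESeq2 1.42.0, its Wald test and its test against a change of 1, no filter, a minimum of 10 counts in all samples, a replicate block, fits of only the groups compared, fits without each sample, and for levels TMM library sizes and TPM. For the other lists, the fit without d0 replicate 2 and the Wald test were added after seeing the data. Deviations of same-numbered samples from their group means correlated (0.314 between d0 and d3F, 0.324 between d0 and d5FS and 0.278 between d3F and d5FS). The main fit did not model this pairing, and the replicate block is given as an alternative.

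The genes and lists were chosen with earlier results of these data known. Named were all 10 genes, the DNA methylation genes, in each other list the 2 called genes with the smallest adjusted p in d5FS against d0 and the gene with the highest mean TPM, and the 5 genes of most similar profile (log2 CPM, prior count 2). Some list members were chosen after their values were seen. They were named for counts near 0, for a call that changed with the block or as further feeder markers. Primordial germ cell genes and markers of other lists were also named for lacking a call or for a call in d5FS against d3F. A gene passed the filter through d0 alone where fewer than 2 of the other libraries reached its cut-off of 0.468 CPM. Positions are from GENCODE M21 and windows from RefSeq, both on mm10. Figures were drawn with matplotlib 3.10.9.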

Additional observations from a re-analysis of the deposited data

How the results depend on the processing

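All fold changes of the 9 genes against d0 kept their direction under every alternative run. With at least 10 counts in every sample only 2 of the genes (Dppa3 and Sycp1) could be tested, and 1 was called in d3F and 1 in d5FS against d0. Over all genes that fit called 357 and 2478. Leaving out one sample gave 1 to 7 called genes for d3F against d0, 4 to 7 for d5FS against d0 and 0 throughout for d5FS against d3F. In those fits the lone sample is assumed to vary like the other groups. The remaining alternatives called 6 to 8 and 5 to 9 genes. With the replicate block 8 genes were called in d3F and 9 in d5FS against d0, Sycp1 and Tdrd1 being added in both, and the block changed no other call of the 9 genes. For d5FS against d3F, leaving out one sample moved the log2 fold change through 0 for Sycp1 (-0.35 to 1.14), Stk31 (-1.01 to 0.57) and Tdrd1 (-0.24 to 2.09). The mean of d5FS was above that of d3F for 8 of 10 genes by TMM library sizes and for 4 by TPM, in place of 7, and in TPM a single short RNA made up as much as 330393 of a library. The 8 genes other than Dppa3 and Sycp1 had at most 30 counts in any d3F or d5FS library.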
